A study of Mus musculus with 62 samples.

Results

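The 10 genes described here encode the main folding machinery of the endoplasmic reticulum (ER) and a transcription factor that controls it: Hspa5, Hsp90b1, Calr, Canx, Pdia3, Pdia4, Pdia6, Dnajb9, Xbp1 and Sdf2l1. They were taken by gene name from the 53975 gene identifiers of the deposited expression tables, and each name matched 1 identifier. Long RNA, depleted of ribosomal RNA, was measured in 31 libraries of 2 systems. In the first, 17 libraries came from the pooled left and right hippocampus of single mice. The APP mice carried the App NL-G-F knock-in allele, a humanised and mutated amyloid precursor gene expressed from its own locus, and the WT mice were C57BL/6J. Mice were aged 3, 6 or 12 months, with 3 animals in every group except the youngest WT group, which had 2. In the second system, 14 libraries came from HT-22 cells, an immortalised mouse hippocampal line. An antisense oligonucleotide built on locked nucleic acid (LNA) was given to all of these cells for 24 h, either anti-HSF1 at 150 nM or a scramble called ctrl, at 50 uM as the labels write it, and then 30 uM of a peptide in DMSO. The peptide was amyloid beta 1-42, called 42, or its reversed sequence, called R. Each peptide had 4 libraries with ctrl and 3 with anti-HSF1, and the labels do not say whether these were separate cultures or technical repeats, so p-values measure the spread between these samples only. No group without peptide, without LNA or with a known ER stressor was part of these libraries.

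Proteins bound for secretion or for membranes fold in the ER, where chaperones of the Hsp70 and Hsp90 families, sugar-binding lectins and disulfide isomerases assist them. When unfolded protein accumulates there, the sensors Ern1 (IRE1), Eif2ak3 (PERK) and Atf6 start the unfolded protein response. IRE1 removes a short intron from Xbp1 messenger RNA, and the protein made from the spliced form, together with the cleaved form of ATF6, switches on chaperone genes through a promoter motif called the ER stress response element (ERSE). HSF1, the target of the LNA, is the main regulator of a separate response, that of cytosolic chaperones to heat and other proteotoxic stress. The tables give 1 value per gene, so spliced and unspliced Xbp1 are counted together here.

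The ERSE letters are shown as a sequence feature of some of these members, 5 of the 10 in exact form. The members include chaperone genes of the kind known to be switched on through this motif. Its share among them is therefore a description and no independent result. The motif was searched as CCAAT, any 9 bases, then CCACG, on both strands of the 300 bases from 250 before to 50 after the start of each gene in RefSeq (GRCm38.p6). All 10 members had such a sequence in the RefSeq table. An exact match was found in Hspa5, Hsp90b1, Calr, Canx and Pdia6, and in 0.119% of all 32851 promoters of the same length. Hsp90b1 alone among the members had 2 exact matches. The windows below are given 5′ to 3′ on the strand of the gene, with the matched motif and its spacer in capitals and 5 bases on each side in lower case.
Hspa5: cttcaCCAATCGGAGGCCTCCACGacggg
Calr: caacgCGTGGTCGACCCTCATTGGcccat
Canx: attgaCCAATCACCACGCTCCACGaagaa
Pdia6: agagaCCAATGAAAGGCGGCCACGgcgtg
The motifs lie at chr2:34772025-34772043 for Hspa5, between positions -65 and -47 from the RefSeq start, at chr8:84847075-84847093 for Calr, at chr11:50325800-50325818 for Canx and at chr12:17266491-17266509 for Pdia6. In Calr the motif reads on the strand opposite to the gene. The Hspa5 motif lies inside the first exon of a longer GENCODE M21 transcript, whereas those of Calr, Canx and Pdia6 lie before the start of the gene in the authors' tables as well.

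For Hsp90b1 the stretch that holds both matches is shown, from chr10:86705510-86705694 on the minus strand, which ends right before the start of the gene in the tables. The first match in the stretch, at chr10:86705638-86705656, reads along the gene and the second, at chr10:86705533-86705551, reads against it.
Hsp90b1: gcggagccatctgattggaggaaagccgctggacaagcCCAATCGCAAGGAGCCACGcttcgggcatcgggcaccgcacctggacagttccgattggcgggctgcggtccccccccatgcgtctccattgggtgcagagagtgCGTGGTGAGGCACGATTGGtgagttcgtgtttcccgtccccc
Another match in this stretch, at chr10:86705598-86705616, differs from the motif at 1 of its 10 fixed bases and is left in lower case. Pdia3, at chr2:121413873-121413891, and Pdia4, at chr6:47813602-47813620, had near matches of this kind only. In these windows the differing base is in lower case too. It is the last base of the motif in Pdia3 and the first in Pdia4, so it adjoins the lower-case flank.
Pdia3: cgcagCCAATCGGCGGCTGCCACactgcg
Pdia4: aaccgaGTGGCAGCCCGTGATTGGtggtc
A match with at most 1 differing base was found in 7 of the 10 members and in 1.5% of all promoters. Dnajb9, Xbp1 and Sdf2l1 held neither form in this window. The 8 letters TGACGTGG, the core of another element bound by XBP1, were in 0 of the 10 member promoters and in 0.676% of all promoters. A match is a statement about letters, and binding was not measured in these libraries.

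All 10 members are protein-coding, and their coordinates in the tables were those of GENCODE M21 on GRCm38. Hspa5 (ENSMUSG00000026864, chr2:34771970-34777547, plus strand) encodes BiP, the ER Hsp70. Its partners here are Dnajb9 (ENSMUSG00000014905, chr12:44205559-44210326, minus strand), an ER J-domain protein, and Sdf2l1 (ENSMUSG00000022769, chr16:17130138-17132383, minus strand), which works with J-domain proteins in BiP complexes. Hsp90b1 (ENSMUSG00000020048, chr10:86690209-86705509, minus strand) encodes GRP94, the ER Hsp90. Calr (ENSMUSG00000003814, chr8:84841850-84846934, minus strand) and Canx (ENSMUSG00000020368, chr11:50293961-50325673, minus strand) encode the lectins calreticulin and calnexin, soluble and membrane-bound respectively. The disulfide isomerases are Pdia3 (ENSMUSG00000027248, chr2:121413775-121438687, plus strand), which partners the lectins, Pdia4 (ENSMUSG00000025823, chr6:47796141-47813430, minus strand) and Pdia6 (ENSMUSG00000020571, chr12:17266545-17284770, plus strand). Xbp1 (ENSMUSG00000020484, chr11:5520659-5525893, plus strand) is the transcription factor. Hsp90b1 overlaps the same-strand gene Gm25745 near its start, listed at 148 to 317 scaled TPM in HT-22 cells and 67.8 to 181 in hippocampus, so reads could be divided between the 2 entries and the level of Hsp90b1 is uncertain to that extent.

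Values are TPM, a transcript level corrected for gene length and for the size of the library. For comparisons between groups they were scaled within each system by the median of ratios, which divides each library by a factor set by its typical gene and is called scaled TPM here. Relative depth, the ratio of coverage to FPKM in each table, ran from 0.724 to 2.60 in HT-22 libraries and from 1.42 to 3.04 in hippocampus libraries, and read totals per library were not used here. All 10 members were above the minimum mean of 1 scaled TPM in both systems. Neuronal markers were all but missing in HT-22 cells: the sum over 8 markers was 1.43 to 7.20 scaled TPM, Snap25, Syt1, Rbfox3 and Gad1 were listed at 0 in all 14 libraries, and Col1a2, a collagen gene of mesenchymal cells, stood at 1266 to 2184. In hippocampus the same neuronal sum was 1640 to 2275. Hsf1, the target of the LNA, was measured at 53.4, 43.1, 61.9 and 56.6 scaled TPM with R and ctrl, and at 49.0, 62.0, 64.2 and 71.3 with 42 and ctrl. With anti-HSF1 it stood at 52.6, 43.1 and 49.0 with R and at 43.3, 51.4 and 46.7 with 42. The anti-HSF1 groups overlapped the ctrl groups under both peptides, and Hsf1 RNA did not pass the test in either (limma, log2 change -0.15, SE 0.14, adjusted p = 0.96 with R, and -0.37, SE 0.14, adjusted p = 0.52 with 42).

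The order of the members by level was nearly the same in both systems. In HT-22 cells the medians of deposited TPM ran from 466 for Calr, 433 for Canx, 391 for Hsp90b1 and 339 for Hspa5 through 226 for Pdia3, 94.6 for Pdia6 and 84.7 for Pdia4 to 49.5 for Xbp1, 19.7 for Sdf2l1 and 14.8 for Dnajb9. In hippocampus they ran from 180.2 for Calr, 158 for Canx, 138 for Hsp90b1 and 104 for Hspa5 through 68.1 for Pdia3, 54.9 for Pdia6, 34.6 for Xbp1 and 33.4 for Pdia4 to 20.6 for Dnajb9 and 9.28 for Sdf2l1. Neighbours in this order were not always separated: Calr exceeded Canx in 12 of 14 HT-22 and 13 of 17 hippocampus libraries, and Xbp1 exceeded Pdia4 in 11 of 17 hippocampus libraries. Pdia3 exceeded Pdia6 in all 14 and all 17. The median of Pdia3 was 3.32 times as high in HT-22 cells as in hippocampus and that of Hspa5 was 3.27 times as high, while for Dnajb9 the ratio was 0.722. For Hsp90b1, Calr, Canx, Pdia3, Pdia4 and Sdf2l1 every HT-22 value of deposited TPM lay above every hippocampus value. No test was made between the systems, whose libraries share no sample type.

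Within groups, the members split into steady and variable ones. The within-group standard deviation of log2(scaled TPM + 1) in HT-22 cells was 0.10 for Hsp90b1 and 0.11 for Sdf2l1, smaller than that of most of the 9444 genes with a mean of at least 10 scaled TPM. It was 0.61 for Xbp1, 0.46 for Hspa5 and 0.44 for Dnajb9, and 94.5%, 89.2% and 87.4% of genes respectively had a smaller one. In hippocampus the order changed. Hspa5 stayed variable at 0.46, with 95.6% of 7770 genes below it, but Xbp1 was at 0.17 and Dnajb9 at 0.11, with 46.2% and 14.5% of genes below them.

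In HT-22 cells the widest differences among libraries did not follow the labelled groups. Of the 8 ctrl libraries, 3 stood apart: replicates 3 and 4 of 42 with ctrl and replicate 4 of R with ctrl. Xbp1 was measured at 47.2, 40.6, 55.6 and 109 scaled TPM with R and ctrl, and at 34.9, 45, 113 and 123 with 42 and ctrl. With anti-HSF1 its values were 41.4, 54.9 and 54.0 with R and 42.5, 46.4 and 42.0 with 42. The 3 libraries therefore held 109 to 123 and the other 11 held 34.9 to 55.6, with a median 2.50 times as high in the 3.

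These 3 libraries were the ones with high immediate-early genes, which cells switch on within minutes of a stimulus such as serum. The summed level of 12 such genes was 1452 to 1763 scaled TPM in the 3 and 154 to 248 in the other 11, and Nr4a1 alone stood at 205 to 224 against 0.958 to 6.98. Acta2 stood at 45.1 to 61.1 against 1.24 to 4.33. Summed mesenchymal markers were at 4849 to 5303 in the 3 and 2887 to 3489 in the others, and astrocyte markers at 139 to 154 and 65.9 to 94.0, with Aqp4 listed at 0 in all 14. The microglial list summed to 53.9 to 55.6 and 6.94 to 14.3. Of that list P2ry12, Aif1, Trem2 and Tyrobp were at 0 in the 3. The sum there came from the rest of the list, Cx3cr1, Tmem119, Csf1r and Cst7. The relative depth of the 3 libraries was 1.20, 1.64 and 2.60, against 0.724 to 1.21 in the others. The labels give no batch, date or culture that sets the 3 apart, so a shared origin could not be examined, and what part depth or these markers have in the members' values was not tested.

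The other members followed Xbp1 in these libraries to different degrees. In 8 of the 10, all 3 values lay above all 11 others, whereas 15.5% of the 17224 genes tested did so, and 0 members lay wholly below, against 12% of genes. Dnajb9 was at 19 to 25.7 in the 3 and at 8.26 to 15.2 in the others. Hspa5 was at 385 to 543 against 169 to 367. The isomerases were closer together: Pdia6 was at 119 to 123 against 83.7 to 92.9, Pdia3 at 244 to 288 against 195 to 225, and Pdia4 at 102 to 109 against 76.0 to 82.4. Among the lectins Calr was at 519.6 to 559 against 396 to 474 and Canx at 472 to 516 against 371 to 432. Hsp90b1, at 355 to 401 against 335 to 399, and Sdf2l1, at 15.7 to 22.2 against 15.9 to 24.1, overlapped. Because the libraries were singled out after their values were seen, no test was made between them and the rest.

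**Figure D1:**
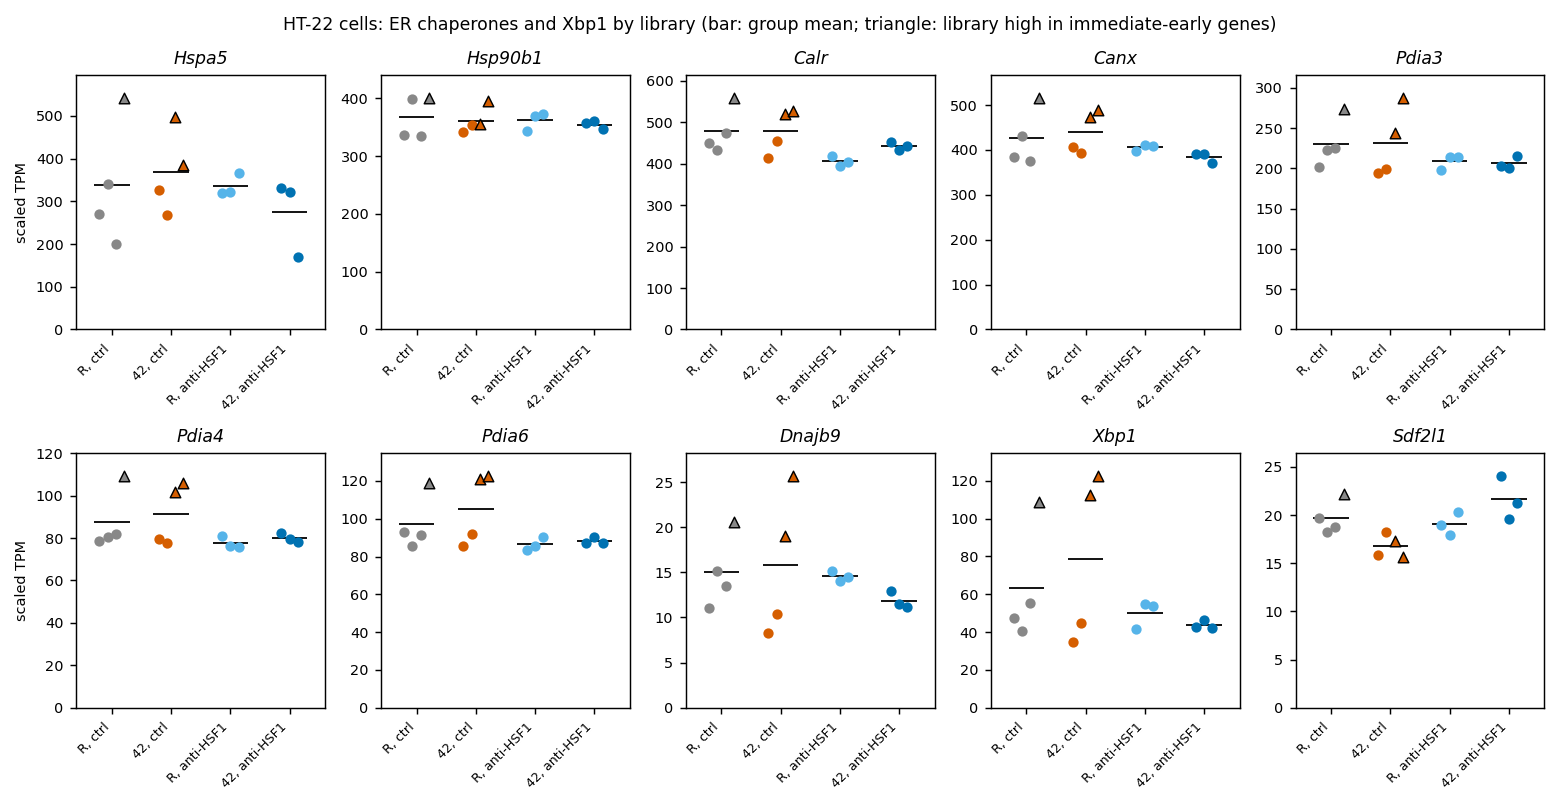
Scaled TPM (y axis, from 0) of each member in the 14 HT-22 libraries by group (x axis), with a bar at each group mean. Triangles mark the 3 ctrl libraries high in immediate-early genes, which hold the highest values of Xbp1 (109 to 123), Pdia6 and Pdia4 and do not stand apart for Hsp90b1 or Sdf2l1.

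Some other genes of the unfolded protein response were also wholly above the others in the 3 libraries. Of 12 sensors and effectors, 6 were and 0 were wholly below, among them Trib3 at 23.2 to 31.4 scaled TPM against 5.27 to 11.9, and Ppp1r15b, a subunit of the phosphatase that reverses translational arrest, at 91.5 to 102 against 42.1 to 49.2. Atf4, the transcription factor downstream of PERK, was at 248 to 492 against 176 to 225. The sensor Atf6 was also wholly above, whereas the sensors Ern1 and Eif2ak3 overlapped. Of 16 genes of ER-associated degradation, 6 were wholly above and 2 wholly below. Herpud1, a membrane component of that machinery, was at 82.0 to 86.6 against 27.3 to 42.9. The 2 below were Sel1l, at 35.2 to 39.7 against 40.0 to 53.9, and Edem3, at 20.2 to 21.3 against 21.6 to 27.8. Of 19 translocation and glycosylation genes 6 were above and 1 below, and of 19 further folding factors 3 were above and 1 below. Of 11 heat shock chaperones and cochaperones, cytosolic and mitochondrial, 5 were above and 1 below. In this last list Dnajb1 was at 68.8 to 80.4 against 38.7 to 47.5 while the inducible Hsp70 gene Hspa1a was at 4.20 to 7.01 against 7.16 to 13.2. Over all 17224 genes tested, 15.5% were wholly above and 12% wholly below. The genes named in this paragraph were chosen after their values were seen.

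The LNA comparison asked whether the members differed between anti-HSF1 and ctrl under each peptide. With 42, 0 of 10 members passed (limma, adjusted p below 0.05), where 0.0232% of the 17224 genes tested did, and 1 member had an unadjusted p below 0.05, against 9.02% of all genes. That member was Sdf2l1. It was measured at 15.9, 18.3, 17.3 and 15.7 scaled TPM with ctrl and at 24.1, 19.5 and 21.3 with anti-HSF1, so that the groups did not overlap. This was the case for 4.38% of genes with anti-HSF1 wholly higher and for 4.16% with it wholly lower, where Canx was the 1 member, at 406, 393, 472 and 489 with ctrl and 390.1, 391 and 371 with anti-HSF1. The log2 change of Canx was -0.19 (SE 0.13, adjusted p = 0.59). For Sdf2l1 the log2 change was 0.34 (SE 0.11, unadjusted p = 0.0091, adjusted p = 0.46), and on deposited TPM, where all genes shift, it was -0.34. Xbp1 had a log2 change of -0.64 with a 95% interval from -1.52 to 0.25 (adjusted p = 0.58). Without the 3 libraries that value was 0.13, from -0.23 to 0.50. Hspa5 had -0.45, from -1.14 to 0.23, and without the 3 libraries -0.17. Hspa5 also varied inside the anti-HSF1 group, at 332, 323 and 169 scaled TPM.

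**Figure D2:**
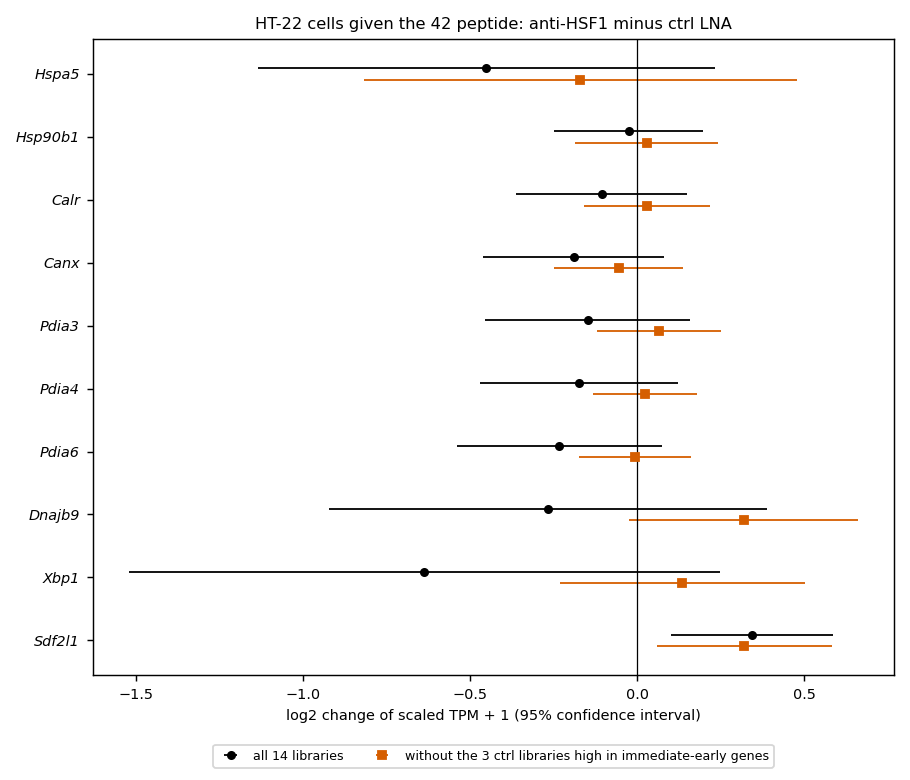
Log2 change of scaled TPM + 1 (x axis, with 95% confidence intervals) for anti-HSF1 minus ctrl in HT-22 cells given the 42 peptide, for each member (y axis), from all 14 libraries and without the 3 ctrl libraries high in immediate-early genes. The Xbp1 value is -0.64 with all libraries and 0.13 without the 3, and that of Sdf2l1 is 0.34 and 0.32.

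With the R peptide, 0 of 10 members passed between anti-HSF1 and ctrl (limma), as for 0% of all genes, and 0 had an unadjusted p below 0.05 against 3.61% of all genes. Calr had the lowest unadjusted p, with 451, 432, 474 and 559 scaled TPM under ctrl and 418, 396 and 405 under anti-HSF1. These groups did not overlap, as for 2.82% of genes in that direction, and the log2 change was -0.23 (SE 0.12, adjusted p = 0.96). The median change over the members was -0.10 with R and -0.18 with 42, against a median over all genes of 0.00 in both. With R this depended on the scaling: 1 of 10 changes was above 0 here, and after quantile normalisation 5 were, with a median of -0.00. The 3 libraries high in immediate-early genes are all ctrl, and 8 of the 10 members were wholly higher in them. Their values lower the changes of those 8 under both peptides. Without the 3 libraries the ctrl group held 3 libraries with R and 2 with 42, and again 0 members passed in either comparison (limma). The lowest unadjusted p there was that of Sdf2l1 with 42 (0.32, unadjusted p = 0.021, adjusted p = 0.55). The share of all genes with a p as low is not given here, so this value cannot be set against it.

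The peptide comparison set 42 against R. Under ctrl, 0 of 10 members passed (limma), as for 0% of all genes, and 0 had an unadjusted p below 0.05, against 5.03% of all genes. The interval for Hsp90b1 was narrow, at a log2 change of -0.02 from -0.23 to 0.18, and that for Xbp1 was wide, at 0.22 from -0.60 to 1.04. Without the 3 libraries Dnajb9 had the lowest unadjusted p here, at -0.46 (SE 0.15, unadjusted p = 0.013, adjusted p = 0.58). Under anti-HSF1, where none of the 3 libraries enters the group means, 0 of 10 passed, as for 0% of genes, and 0 had an unadjusted p below 0.05, against 4.59%. There Calr was at 418, 396 and 405 with R and 452, 433 and 444 with 42, and Dnajb9 at 15.2, 14.1 and 14.5 with R and 12.9, 11.4 and 11.1 with 42. Neither pair of groups overlapped, and nor did those of Canx, at 398, 411 and 408 with R and 390.1, 391 and 371 with 42. Groups were wholly higher with 42 in 8.74% of genes and wholly lower in 9.61%. The log2 changes were 0.12 (SE 0.13) for Calr, -0.28 (SE 0.32) for Dnajb9 and -0.08 (SE 0.13) for Canx, with adjusted p = 1 for each, the spread being estimated over all 4 groups. On deposited TPM all 10 members were below 0 in this comparison, Calr at -0.47. The difference between the LNA effects under the 2 peptides was called in 0 members and in 0% of genes, and 1 member, Sdf2l1, had an unadjusted p below 0.05, against 5.18% (log2 difference 0.39, SE 0.16, adjusted p = 0.91). On deposited TPM that difference was -0.33, and all 10 members were below 0.

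Of the pathway lists beside the members, 0 genes passed in any of these HT-22 comparisons (limma). Between anti-HSF1 and ctrl with 42, an unadjusted p below 0.05 was seen in 0 of 12 sensors and effectors and 1 of 19 folding factors. It was also seen in 2 of 16 degradation genes, 2 of 19 translocation genes and 0 of 11 heat shock chaperones. Over all genes, 0.0232% passed in that comparison and 9.02% had such a p. The 2 of each list with the lowest unadjusted p were Mbtps1 and Ppp1r15b, Dnajc10 and Sdf2, Os9 and Ube2g2, Stt3a and Spcs2, and Hspa8 and Bag3. Their log2 changes were -0.15 and -0.57, -0.30 and 0.29, 0.22 and -0.49, -0.34 and 1.03, and -0.19 and -0.27. Hspa8, the constitutive cytosolic Hsp70, and Bag3, a cochaperone of Hsp70, had adjusted p = 0.57 and 0.63. Of these 10 genes, Ppp1r15b, Dnajc10, Ube2g2, Hspa8 and Bag3 were wholly above and Sdf2 and Spcs2 wholly below in the 3 libraries, 2 of which belong to 42 with ctrl. Without the 3, Spcs2 had a change of 0.18, Ppp1r15b -0.07, Dnajc10 -0.19, Sdf2 0.14, Ube2g2 -0.37, Hspa8 -0.11 and Bag3 0.07, and Mbtps1, Os9 and Stt3a had -0.17, 0.29 and -0.18. None of the 10 passed there (limma).

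Turning to the mice, the members were closest to a genotype difference at 12 months. There 8 of the 10, all but Hspa5 and Dnajb9, had every APP value above every WT value, whereas 8.62% of the 17767 genes tested were wholly higher in APP. None of the 8 passed the test over all genes: 0 of 10 members were called (limma, adjusted p below 0.05) against 0.433% of all genes. An unadjusted p below 0.05 was found in the same 8, against 7.03% of all genes. The median log2 change over the 10 was 0.45, against -0.00 over all genes, with 9 of 10 above 0, and all 10 above 0 on deposited TPM.

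Calr had the lowest p among them. It was measured at 124, 141 and 122 scaled TPM in WT and at 181, 182 and 188 in APP, 1.42 times as high after adding 1 (log2 change 0.51, SE 0.12, unadjusted p = 0.00072, adjusted p = 0.10). Pdia4 was at 21.0, 26.1 and 17.6 in WT and at 34.2, 36.1 and 32.1 in APP (0.65, SE 0.17, adjusted p = 0.17). Xbp1 was at 26.4, 21.7 and 20.2 in WT and at 33.2, 31.6 and 33.3 in APP (0.51, SE 0.14, adjusted p = 0.19). In these 3 genes the WT mice were lower than the APP mice. The gap between the groups was wider than the spread within either for Calr, and narrower than the spread among WT mice for Pdia4 and Xbp1.

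Sdf2l1 had the widest difference at 12 months, at 5.87, 6.97 and 6.04 in WT and 13.0, 9.35 and 11.6 in APP (0.75, SE 0.23, adjusted p = 0.33). For GRP94, the other isomerases and calnexin the differences were smaller. Hsp90b1 was at 104, 104 and 95.4 in WT and at 130.4, 148 and 133 in APP (0.43, SE 0.12, adjusted p = 0.25). Pdia3 was at 50.0, 56.6 and 51.2 against 67.2, 76.9 and 71.3 (0.44, SE 0.13, adjusted p = 0.26). Pdia6 was at 33.7, 44.1 and 38.6 against 55.5, 53.1 and 51.9 (0.46, SE 0.14, adjusted p = 0.31), and Canx, the narrowest of the 8, at 136, 143 and 123 against 149, 159.5 and 159.7 (0.22, SE 0.10, adjusted p = 0.68). BiP and its J-domain partner were the exceptions. Hspa5 overlapped, at 83.3, 82.4 and 44.4 in WT and 108, 68.8 and 89.9 in APP (0.37, 95% interval -0.33 to 1.07), and its change was 0.08 without WT replicate 3. Dnajb9 overlapped as well, at 19.9, 22.5 and 18.9 in WT and 18.1, 20.6 and 20.3 in APP (-0.05, from -0.28 to 0.17).

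**Figure D3:**
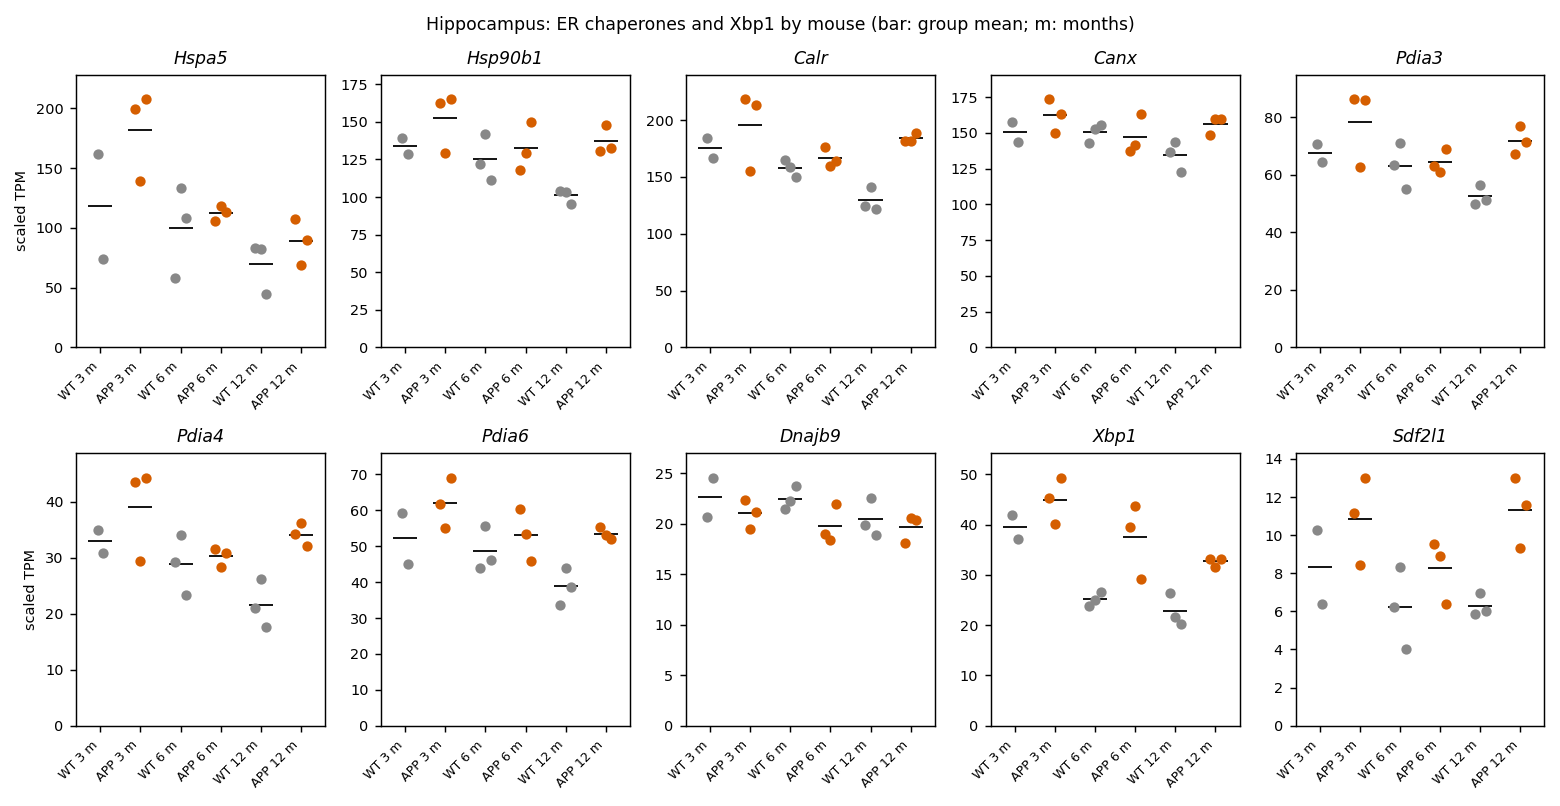
Scaled TPM (y axis, from 0) of each member in the 17 hippocampus libraries by genotype and age (x axis), each point a mouse, with a bar at each group mean. At 12 months the APP points of 8 members lie above all WT points, for example Calr at 181 to 188 against 122 to 141, while those of Hspa5 and Dnajb9 overlap.

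Other measures moved with genotype at 12 months. Microglial markers summed to 73.7 to 85.5 scaled TPM in WT and to 170.4 to 203 in APP over 8 genes, and astrocyte markers to 1032 to 1081 and 1382 to 1551 over 7 genes. Choroid plexus markers summed to 609 to 1699 and 1919 to 2166 over 10 genes, and endothelial markers to 17.3 to 28.6 and 31.3 to 38.1 over 7 genes. Oligodendrocyte markers summed to 1003 to 1045 and 1141 to 1268 over 8 genes. None of these markers was at 0 throughout a group. The part of these cell types in the members' values was not tested, and in bulk tissue more cells of a type and more RNA per cell cannot be told apart. In addition, Xist stood at 0.265 to 0.354 scaled TPM and Ddx3y, on the Y chromosome, at 18.8 to 27.2 in the WT mice of 12 months, against 103 to 117 and 0 to 0.0797 in the APP mice of that age. The WT mice of 6 months were also high in Ddx3y, at 24.5 to 28.2, and those of 3 months were high in Xist, at 90.7 to 92.2, as were all 9 APP mice. Sex and genotype therefore cannot be told apart at 6 and 12 months.

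At 6 months Xbp1 was the only member whose groups did not overlap. It was measured at 23.7, 25.1 and 26.6 scaled TPM in WT and at 39.5, 43.8 and 29.3 in APP. Such a separation, with APP higher, was seen in 11.1% of all genes, and the log2 change was 0.54 (SE 0.14, unadjusted p = 0.0013, adjusted p = 0.059). Adjusted p was 0.041 with genes of a mean of at least 5 scaled TPM and 0.028 without APP replicate 3, the lowest of the APP mice. The share of all genes called in either fit is not given here. Over all alternatives the adjusted p ran from 0.00016 on deposited TPM, where 58% of all genes were called (limma), to 0.20 without APP replicate 2. In this comparison 0 of 10 members were called against 1.71% of genes (limma), and 1 had an unadjusted p below 0.05 against 17% of genes. Calr was at 165, 158 and 150.0 in WT and 176, 159.5 and 164 in APP (0.08, 95% interval -0.18 to 0.33), and Pdia4 at 29.3, 34.1 and 23.3 against 31.5, 28.3 and 30.9 (0.08, from -0.28 to 0.44). Sdf2l1 was at 6.26, 8.33 and 4.03 against 9.55, 8.93 and 6.36 (0.39, from -0.10 to 0.88). Canx and Dnajb9 had changes of -0.03 and -0.18, which were 0.68 and 0.51 on deposited TPM. Choroid plexus markers differed at this age in the other direction, at 1449.6 to 1782 in WT and 113 to 1214 in APP, and their part in the value of Xbp1 was not tested.

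At 3 months, with 2 WT mice, 0 of 10 members were called (limma) against 0.304% of genes, 0 had an unadjusted p below 0.05 against 13.4%, and 0 were wholly higher in APP against 13.8%. The log2 changes ran from -0.10 for Dnajb9 to 0.70 for Hspa5, with 9 above 0, and with 5 above 0 on deposited TPM. Hspa5 was at 162 and 74.3 scaled TPM in WT and at 199.5, 139 and 208 in APP (0.70, 95% interval -0.08 to 1.49). That change was 0.15 without WT replicate 2 and 1.26 without WT replicate 1. Xbp1 was at 42.0 and 37.1 in WT and 45.4, 40.2 and 49.4 in APP (0.18, from -0.15 to 0.51). APP replicate 2 was the lowest of its group for all 10 members, for example Calr at 155 beside 218 and 213. WT replicate 2 was the lower of the pair for 9 of 10. Astrocyte markers summed to 1007 to 1028 in WT and 764 to 947 in APP, and oligodendrocyte markers to 1468 to 1548 and 1579 to 2641. Choroid plexus markers summed to 1340 to 2028 in WT and 846 to 3253 in APP, highest in APP replicate 1. Immediate-early genes were at 191 to 241 and 132 to 401, lowest in APP replicate 1. The part of these lists in the members' values was not tested.

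**Figure D4:**
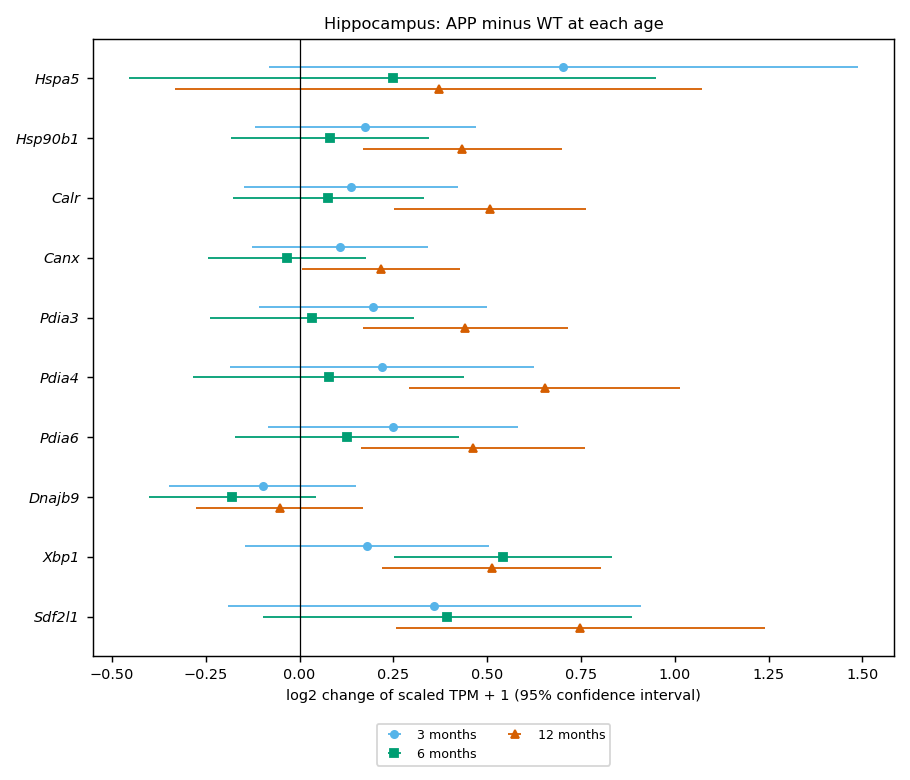
Log2 change of scaled TPM + 1 (x axis, with 95% confidence intervals) for APP minus WT in hippocampus at 3, 6 and 12 months, for each member (y axis). At 12 months the intervals of 8 members lie above 0, at 6 months that of Xbp1 alone does, and at 3 months all 10 include 0.

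Averaged over the 3 ages, Xbp1 had a log2 change of 0.41 (SE 0.08, unadjusted p = 0.00016, adjusted p = 0.056), with the APP mean above the WT mean at each age. Its adjusted p (limma) was 0.017 without APP 6 months replicate 3 and 0.046 with a minimum mean of 5 scaled TPM. With a pseudocount of 5 it was 0.049. The share of all genes called with these settings is not given here. Over all alternatives the adjusted p ran from 0.0017 on deposited TPM, where 7.58% of all genes were called, to 0.20 without WT 3 months replicate 2. Sdf2l1 followed at 0.50 (SE 0.14, adjusted p = 0.15), then Calr at 0.24 (SE 0.07, adjusted p = 0.17). In this average 0 of 10 members were called against 0.242% of genes (limma), and 8 had an unadjusted p below 0.05 against 12.3%. Sex and genotype cannot be told apart at 6 and 12 months, and both ages enter this average. Whether the genotype difference itself changed between 3 and 12 months was tested as an interaction. It was called in 0 members against 0.0732% of genes, and 0 had an unadjusted p below 0.05 against 10.1%. The closest was Calr at 0.37 (95% interval -0.01 to 0.75, adjusted p = 0.52), so the larger values at 12 months were not shown to differ from those at 3 months. WT mice were high in Xist at 3 months and in Ddx3y at 12 months, while APP mice were high in Xist at both. In the interaction, too, sex cannot be told apart from genotype and age.

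Age within a genotype was compared as well. In WT mice, 12 minus 3 months, 0 of 10 members were called (limma) against 0.0619% of genes, 6 had an unadjusted p below 0.05 against 8.29%, and 7 were wholly lower at 12 months against 13.7%. All 10 changes were below 0, also on deposited TPM and after quantile normalisation. Xbp1 had the lowest p, at 42.0 and 37.1 scaled TPM at 3 months and 26.4, 21.7 and 20.2 at 12 months (-0.78, SE 0.15, unadjusted p = 0.00014, adjusted p = 0.14). By unadjusted p Calr followed at -0.44 (SE 0.13), then Pdia4 at -0.60 (SE 0.19) and Hsp90b1 at -0.40 (SE 0.14), with adjusted p of 0.38, 0.42 and 0.46. The mice of 3 months were high in Xist and those of 12 months in Ddx3y, so age and sex cannot be told apart here. Between these ages oligodendrocyte markers also differed, with sums of 1468 to 1548 at 3 and 1003 to 1045 at 12 months. Immediate-early genes were at 191 to 241 and 101 to 152, microglial markers at 59.4 to 66.7 and 73.7 to 85.5, and astrocyte markers at 1007 to 1028 and 1032 to 1081. The part of these in the members' values was not tested.

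In WT mice of 6 and 12 months, which were alike in Xist and Ddx3y, 0 of 10 members were called (limma), as for 0% of genes. An unadjusted p below 0.05 was found in 4, Hsp90b1, Calr, Pdia4 and Pdia6, against 6.84% of genes, and 2, Hsp90b1 and Calr, were wholly lower at 12 months, against 6.15%. Calr was at 165, 158 and 150.0 at 6 months and at 124, 141 and 122 at 12 months (-0.29, SE 0.12, adjusted p = 0.72). Hsp90b1 was at 122, 142 and 112 and then at 104, 104 and 95.4 (-0.30, SE 0.12, adjusted p = 0.72). Xbp1 differed little, with -0.14 (95% interval -0.44 to 0.15). Of the 10 changes 9 were below 0, and 6 on deposited TPM. This comparison was added after the marker genes of sex had been seen.

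In APP mice, all high in Xist, 12 minus 3 months gave 0 called members against 3.27% of genes (limma), 2 with an unadjusted p below 0.05 against 16.5%, and 2 wholly lower against 10.7%. These were Hspa5 and Xbp1 in both counts. Hspa5 was at 199.5, 139 and 208 scaled TPM at 3 months and at 108, 68.8 and 89.9 at 12 months (-1.03, SE 0.33, adjusted p = 0.11). Xbp1 was at 45.4, 40.2 and 49.4 and then at 33.2, 31.6 and 33.3 (-0.44, SE 0.14, adjusted p = 0.099). The other 8 lay between -0.20 and 0.06, Calr for example at -0.07 (95% interval -0.33 to 0.18). From 6 to 12 months in APP mice, 0 members were called against 0.54% of genes (limma), and 0 had an unadjusted p below 0.05 against 11.4%. Calr and Pdia4 were wholly higher at 12 months, against 10.7% of genes, with changes of 0.14 (SE 0.12) and 0.17 (SE 0.17), which did not pass. Here the direction depended on the scaling: 7 of 10 changes were above 0, 4 after quantile normalisation and 1 on deposited TPM, where Calr was at -0.17 and Pdia4 at -0.14. Microglial markers summed to 66.1 to 131 at 6 months and 170.4 to 203 at 12, and choroid plexus markers to 113 to 1214 and 1919 to 2166, and their part was not tested. Sdf2l1 had the lowest p there, at 9.55, 8.93 and 6.36 and then 13.0, 9.35 and 11.6 (0.42, SE 0.23, adjusted p = 0.55).

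**Figure D5:**
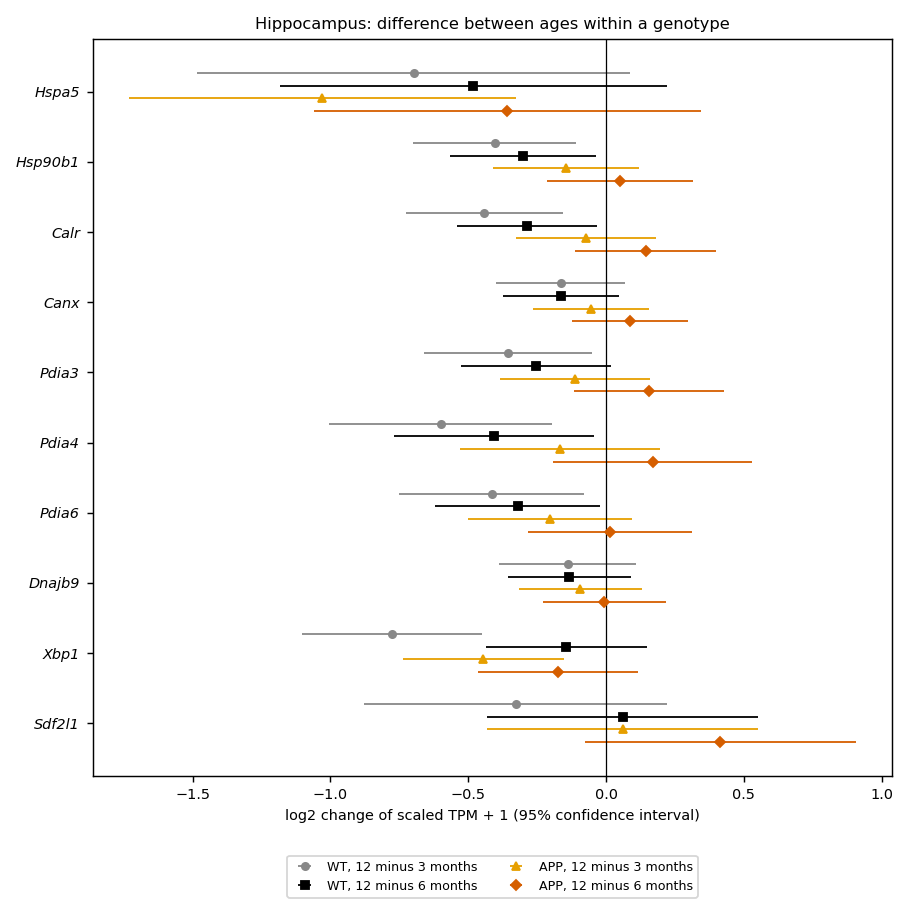
Log2 change of scaled TPM + 1 (x axis, with 95% confidence intervals) between ages within each genotype, for each member (y axis). Values of WT at 12 minus 3 months lie below 0 for all 10 members, those of APP at 12 minus 6 months for 3 of them, and the widest intervals are those of Hspa5.

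Among the other pathway genes in hippocampus, 2 passed the test in the comparisons of genotype or age, both in APP mice at 12 minus 3 months. In that comparison 3.27% of all genes passed, so 2 genes over these lists do not set the pathway apart. Herpud1, of ER-associated degradation, fell by 0.76 on the log2 scale (SE 0.18, adjusted p = 0.031), and Dnajb1, a cytosolic cochaperone of Hsp70, fell by 0.72 (SE 0.10, adjusted p = 0.0018). The remaining lists had 0 called genes in that comparison: 0 of 11 sensors and effectors, 0 of 19 folding factors and 0 of 19 translocation genes, with 3, 2 and 2 at an unadjusted p below 0.05. Over all genes, 16.5% had such a p. Atf6b and Eif2ak3 were the closest among the sensors at 0.44 and -0.22, Erp44 and Uggt1 among the folding factors at -0.33 and -0.34, and Sec62 and Sec11a among the translocation genes at -0.34 and 0.58. Immediate-early genes also differed there, with summed levels of 132 to 401 at 3 months and 124 to 129.7 at 12 months, as did microglial markers at 59.7 to 72.1 and 170.4 to 203, astrocyte markers at 764 to 947 and 1382 to 1551, and oligodendrocyte markers at 1579 to 2641 and 1141 to 1268. The part of these in the values of Hspa5, Xbp1, Herpud1 and Dnajb1 was not tested.

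At 12 months between APP and WT, 0 genes of the 5 lists were called (limma). An unadjusted p below 0.05 was seen in 2 of 11 sensors and effectors, 5 of 19 folding factors and 0 of 16 degradation genes. It was also seen in 1 of 19 translocation genes and 3 of 12 heat shock chaperones, cytosolic and mitochondrial. Over all genes, 0.433% were called and 7.03% had such a p. Creb3l2 and Atf6b led the first list at 0.40 and 0.29. Hyou1, an ER Hsp70-like protein that assists BiP, and Dnajc3, an ER J-domain protein, led the second at 0.40 and 0.38. Edem1 and Derl1 led the third at 0.52 and 0.22, Sec61g and Rpn1 the fourth at -0.40 and 0.24, and Hsph1 and Hspd1 the fifth at 0.40 and 0.24. The median change was 0.45 over the members, 0.17 over the folding factors and 0.18 over the heat shock chaperones. It was between 0.05 and 0.08 over the other 3 lists.

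At 6 months the lists again had 0 called genes (limma). An unadjusted p below 0.05 was found in 4 of 11 sensors and effectors, 3 of 19 folding factors and 4 of 16 degradation genes. It was also found in 5 of 19 translocation genes and 3 of 12 heat shock chaperones. Over all genes, 1.71% were called and 17% had such a p. Creb3l2 and Atf4 led the sensors at 0.31 and 0.35, and Ppib and Sdf2 the folding factors at -0.46 and -0.38. Selenos and Sel1l led the degradation genes at -0.53 and 0.48, and Sec61g and Ssr4 the translocation genes at -0.57 and -0.63. Bag3 and Hspb1 led the heat shock chaperones at 0.43 and 0.70. Sel1l and Selenos, both parts of the degradation complex in the ER membrane, had changes of opposite sign.

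The genes whose pattern was most like that of Hspa5 were ranked by Pearson's r after subtracting group means, among genes with a mean of at least 10 scaled TPM. Over the 14 HT-22 libraries these were Gm20689 at 0.94, Vps4b at 0.92, Ccnyl1 at 0.92, Tm9sf2 at 0.92 and Rhoa at 0.91. Over the 17 hippocampus libraries they were Tnpo1 at 0.84, Aph1b at 0.83, Snord17 at 0.83, Zmym6 at 0.82 and Hint3 at 0.80. Among members Canx came closest in both, at 0.84 in HT-22 cells and 0.58 in hippocampus. Xbp1 stood at 0.57 in HT-22 cells and Pdia6 at 0.63, and without the 3 libraries high in immediate-early genes these were -0.29 and -0.15. The points share their libraries and the scaling, and r is given as a description.

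The scaling mattered for all of these values. On TPM as deposited, the median change over all genes was -0.62 between anti-HSF1 and ctrl with 42 and 0.60 between APP and WT at 6 months, so that most genes moved together. With those values 10 members were called in each of these comparisons, when 50.7% and 58% of all genes were. In the same way 5 were called between 42 and R under anti-HSF1 (24.3% of genes), 6 in the peptide by LNA difference (25.3%), 8 in the average over ages (7.58%), 2 at 12 months (0.639%) and 1 in WT at 12 minus 3 months (0.118%). The 2 at 12 months were Pdia4 and Xbp1, with a median shift of all genes of 0.12, and the 1 in WT was Xbp1, with a shift of -0.29.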

How the data were processed

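Long RNA of 17 hippocampus and 14 HT-22 libraries was used. TPM, FPKM and coverage per gene were deposited by the authors. The submitters' processing notes name FastQC, cutadapt 1.18, BWA 0.7.17, HISAT2 2.1.0, bedtools 2.26.0 and StringTie 1.3.4d and the builds mm10 and GRCm38, without saying which step each served. The depth in reads was not used here, so counting error is unknown. TPM was summed per gene identifier, scaled by the median of ratios within each system and tested as log2(scaled TPM + 1) with limma 3.58.1 (R 4.3.3, trend, robust), in 1 fit per system, over genes with a mean of at least 1. Changes are on that scale, which understates those of low genes. P-values were adjusted by Benjamini-Hochberg over all genes tested and called below 0.05. Intervals are at 95% and SE is the moderated standard error. Tables were handled in Python 3.11.15 with pandas 2.3.3 and numpy 2.4.6, and the test was checked on simulated data. Of each pathway list, called genes, or otherwise the 2 with the lowest p, were named in 4 comparisons (anti-HSF1 with 42, APP against WT at 6 and 12 months, and APP at 12 against 3 months). Alternatives covered scaling, pseudocount, filter, variance model, replicate block and single libraries. Leaving out the 3 HT-22 libraries, and comparing 12 with 6 months, were chosen after seeing the data. The members and lists were chosen with earlier results of these data known.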

Additional observations from a re-analysis of the deposited data

Results flagged for a closer look

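Pdia4 in replicate 4 of HT-22 cells given R with ctrl stood far above the other 3 libraries of its group, at 109.2 scaled TPM beside 78.5, 80.7 and 81.8. Its gap to the nearest of them was 0.893 of the whole range of the group, above the 95% critical value of Dixon's test for 4 samples. It was the only such value among 22 sets of 4 libraries examined for the members and Hsf1, and chance gives about 1 in 20. The same library was the highest of its group for all 10 members and is 1 of the 3 high in immediate-early genes. In those 3, Pdia4 stood at 102 to 109 scaled TPM, against 76.0 to 82.4 in the other 11.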

How the results depend on the processing

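Over 14 comparisons, the count of members past the threshold was 0 in the analysis reported, and 11 alternatives and the omission of each of 31 libraries gave 2530 further values for single members. On TPM as deposited, 5 members were called between 42 and R under anti-HSF1, 10 between anti-HSF1 and ctrl with 42, 6 in their interaction, 10 for APP against WT at 6 months, 2 at 12 months, 8 over the mean of ages and 1 in WT at 12 minus 3 months. On deposited TPM the sign differed in 31 of 140 changes, 25 of them not called there. The 6 called there were Sdf2l1 between anti-HSF1 and ctrl with 42 (-0.34), Pdia4 (-0.54) and Pdia6 (-0.55) between 42 and R under anti-HSF1, Calr in the interaction (-0.63), and Canx (0.68) and Dnajb9 (0.51) at 6 months. The median of all genes moved the same way in the comparisons of these 6. Xbp1 was the 1 member called over the mean of ages with a pseudocount of 5, and at 6 months and over the mean with a minimum mean of 5. With array weights 2 members, Xbp1 (-1.07) and Pdia6 (-0.36), were called between anti-HSF1 and ctrl with 42, when 1840 genes were called against 4, and 1 at 12 months, Calr (adjusted p = 0.026). The cause was not tested. The share of all genes called is not given here for Calr with array weights, so that call cannot be set against it. Nor is it given for Xbp1 with a pseudocount of 5, a minimum mean of 5 or APP 6 months replicate 3 left out. Leaving out single libraries gave 0 to 1 called members at 6 months and 0 to 1 over the mean of ages, the 1 being Xbp1 without APP 6 months replicate 3, and 0 elsewhere. With a replicate block 0 members were called in all 14 comparisons, and Xbp1 at 6 months was at 0.54 (adjusted p = 0.070). The labels do not say that replicate numbers pair samples. Same-numbered libraries correlated at -0.22 to 0.57 over the 4 pairs of R and 42 with ctrl, against -0.55 to 0.56 for different numbers. Between APP at 3 and 6 months they correlated at 0.064 to 0.23, against -0.19 to 0.032 for different numbers. Between all other groups same-numbered libraries ran from -0.15 to 0.12. Whether any numbers mark a shared origin is not known. Groups fitted alone gave no value for the mean of ages and the HT-22 interaction. Depth in reads was not known, and 2 to 4 libraries a group limit what could be detected.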
